A study of Mus musculus with 6 samples.

Results

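The genes followed here are opticin (Optc) and 9 other small leucine-rich proteoglycans: Lum, Dcn, Bgn, Fmod, Prelp, Omd, Ogn, Epyc and Kera. They were chosen by symbol, as the 10 rows carrying these names among 41449 rows of the deposited table, with the difference between the genotypes already known. Their genotype values are therefore given as a description, without a test. RNA was measured by sequencing in lenses of wild-type mice (WT, strain C57BL/6) and of mice with a conditional knockout of fibronectin (FNcKO, a mixed background of C57BL/6, 129 and FVB/N). Mice of both genotypes were 2 months old, and each of the 3 libraries per genotype came from 2 microdissected lenses, described as biological replicates. Not given in the sources used here are the Cre driver, the floxed part of the gene and whether the WT mice carried a floxed allele or Cre. Strain divides the libraries exactly as genotype does, so the effects of strain and genotype cannot be told apart.

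Small leucine-rich proteoglycans are secreted proteins whose curved leucine-rich repeats bind collagen and set the width and spacing of its fibrils. The family falls into classes by sequence and gene structure: Dcn and Bgn belong to class I, Fmod, Lum, Prelp, Kera and Omd to class II, and Optc, Ogn and Epyc to class III. Several members also bind growth factors, and in the eye the family is best known from the collagen of the cornea, the sclera and the vitreous. Opticin coats vitreous collagen fibrils and is made mainly by the non-pigmented epithelium of the ciliary body, which adjoins the lens.

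The members lie in gene clusters. Optc (chromosome 1, 133897193 to 133909712, GRCm38), Prelp (133910304 to 133929977) and Fmod (134037515 to 134048277) are neighbours. Omd (chromosome 13, 49579754 to 49592612) and Ogn (49608071 to 49624500) form another pair. Dcn (chromosome 10, 97479500 to 97518163), Lum (97565501 to 97572703), Kera (97606955 to 97613688) and Epyc (97644068 to 97681900) follow each other, and Bgn lies alone on chromosome X (73483601 to 73495936). In the GENCODE M21 models the class II members Lum, Fmod, Prelp, Kera and Omd each have 2 coding exons, both class I members have 7, Ogn and Epyc have 6 and Optc has 7.

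The promoters of the 3 neighbours on chromosome 1 are shown because these genes were higher together in FNcKO, and that of Ogn because it is the abundant member that was not. Each is the RefSeq window from 250 bases before to 50 after a gene's start (GRCm38.p6), 5′ to 3′ along the gene's own strand. Capitals mark TGCTGA or its reverse complement, a motif picked after the sequences had been read. The windows are chr1:133907950-133908249 on the minus strand for Optc, chr1:133921352-133921651 on the minus strand for Prelp, chr1:134037004-134037303 on the plus strand for Fmod and chr13:49607765-49608064 on the plus strand for Ogn. In none of these 4 genes does the RefSeq start coincide with the end of the gene in the deposited table.
Optc: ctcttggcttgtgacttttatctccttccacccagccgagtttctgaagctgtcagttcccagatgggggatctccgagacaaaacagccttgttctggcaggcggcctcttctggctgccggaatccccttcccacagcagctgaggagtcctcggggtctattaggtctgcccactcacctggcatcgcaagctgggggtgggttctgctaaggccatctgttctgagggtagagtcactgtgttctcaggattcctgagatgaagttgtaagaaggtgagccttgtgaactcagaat
Prelp: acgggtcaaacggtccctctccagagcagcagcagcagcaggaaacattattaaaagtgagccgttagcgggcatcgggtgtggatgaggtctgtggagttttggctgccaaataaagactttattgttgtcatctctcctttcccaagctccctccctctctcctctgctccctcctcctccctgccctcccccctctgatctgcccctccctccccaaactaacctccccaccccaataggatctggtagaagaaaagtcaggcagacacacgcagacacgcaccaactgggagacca
Fmod: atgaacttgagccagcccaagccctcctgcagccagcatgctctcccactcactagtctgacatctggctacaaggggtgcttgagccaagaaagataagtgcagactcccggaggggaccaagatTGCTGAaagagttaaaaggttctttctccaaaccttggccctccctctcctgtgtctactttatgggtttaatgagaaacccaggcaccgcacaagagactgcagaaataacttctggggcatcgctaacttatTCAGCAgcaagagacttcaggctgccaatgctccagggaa
Ogn: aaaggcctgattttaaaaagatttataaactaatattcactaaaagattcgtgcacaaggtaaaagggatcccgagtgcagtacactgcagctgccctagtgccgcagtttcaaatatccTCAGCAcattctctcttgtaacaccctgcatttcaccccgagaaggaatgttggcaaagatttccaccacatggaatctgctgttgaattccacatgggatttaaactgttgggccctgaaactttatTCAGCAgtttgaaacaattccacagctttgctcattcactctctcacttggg

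These letters are not shared by the 3 neighbours: TGCTGA, searched on both strands, was found in the Fmod window at -124 and 10 and in the Ogn window at -130 and -2 (first base of the match, with the start site as 0), and not in those of Optc or Prelp. It was present in 19.5% of all 32851 RefSeq promoters of the same length. A further 4 motifs were searched on both strands, and none matched in the Optc, Prelp or Fmod windows. They were the TATA box TATAAA, found in 13.6% of all promoters, the GC box GGGCGG in 35.7%, the AP-1 motif TGANTCA in 7.81% and the E-box CACGTG in 7.15%. The Ogn window held TATAAA at -229 and -227, overlapping each other on opposite strands. GC content was 54.3% for Optc, 55.3% for Prelp, 51.0% for Fmod and 42.3% for Ogn, against a median of 52.7% over all promoters. Promoters of 8 of the 10 members were in the table, and those of Dcn and Lum were not analysed here.

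The libraries were scaled by the authors to FPKM, in which fragment counts are divided by transcript length and by library size. Depth, estimated from the values, ranged from 26400000 to 31700000 fragments over the WT libraries and from 19800000 to 21900000 over the FNcKO libraries. Fn1, the targeted gene, stood at 0.135, 0.188 and 0.253 FPKM in WT and at 0.128, 0.0482 and 0.0942 FPKM in FNcKO (replicates 1, 2 and 3). It was low in both genotypes, the groups did not overlap, and a value over the whole gene is no check of the floxed part. The lens markers were abundant in both genotypes, with Cryaa at 39128 ± 1507 FPKM in WT and 45100 ± 1030 FPKM in FNcKO and Cryab at 25040 ± 1164 and 25129 ± 1918 FPKM (SD, n = 3 each). All 12 lens markers were tested and 0 were called by limma at adjusted p 0.05 (2 at an unadjusted p under 0.05). WT replicate 2 has no value in 3578 rows (8.63%), chromosome X among them, so Bgn has 2 WT values.

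**Figure D1:**
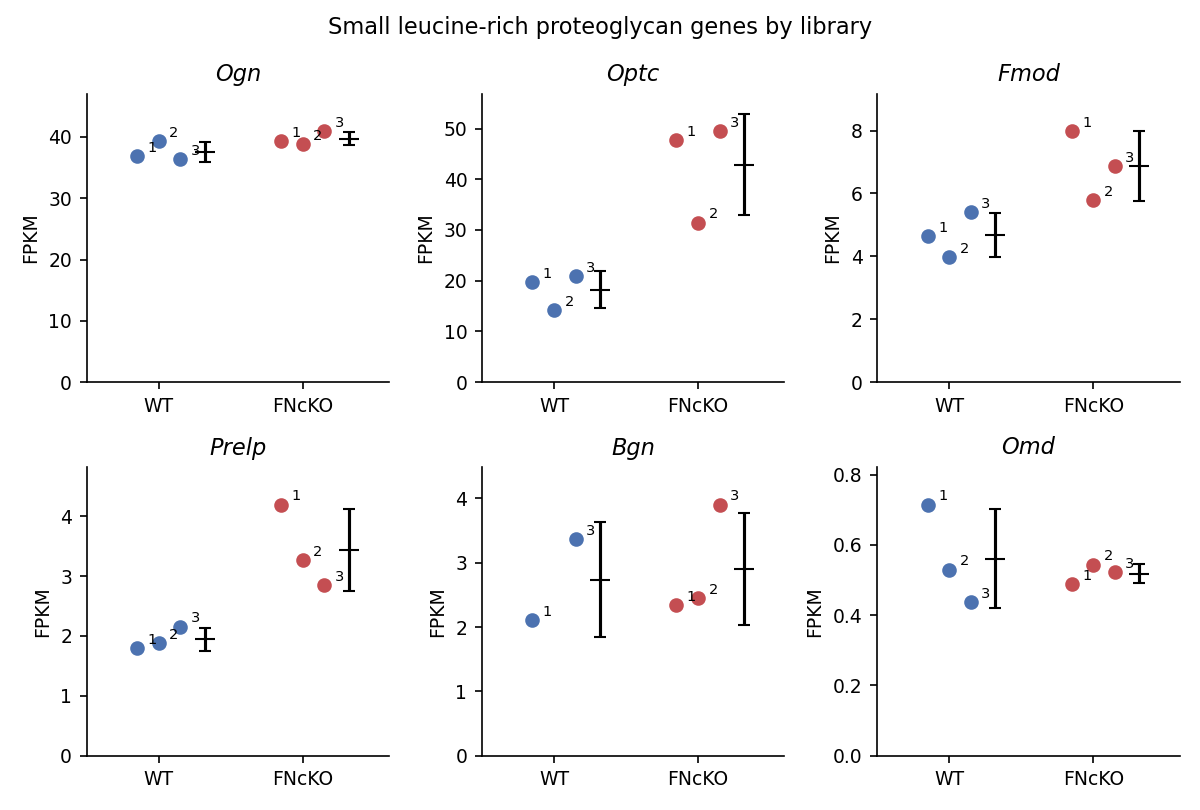
FPKM of the 6 members with the highest levels, each panel with its own axis from 0. Points are libraries, numbered by replicate, and the bar beside them is the mean with its SD (n = 3, or 2 for Bgn in WT). For Optc, Prelp and Fmod every FNcKO library lies above every WT library, whereas for Ogn, Bgn and Omd the groups overlap.

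Optc, the class III member that coats vitreous collagen, stood at 19.8, 14.2 and 20.8 FPKM in WT and at 47.7, 31.4 and 49.5 FPKM in FNcKO, listed as replicates 1, 2 and 3. Replicate 2 was the lowest library of each genotype, and the groups did not overlap. The means were 18.3 ± 3.58 and 42.9 ± 9.93 FPKM (SD, n = 3 each), 2.35-fold higher in FNcKO, with a difference of 1.18 (SE 0.221) on the log2(FPKM + 1) scale. With any one library left out this log2 difference lay between 1.02 and 1.38, and with the 4 other scalings between libraries it lay between 1.23 and 1.59.

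Prelp, which binds collagen and the basement membrane proteoglycan perlecan, stood at 1.79, 1.88 and 2.16 FPKM in WT and at 4.19, 3.26 and 2.85 FPKM in FNcKO (replicates 1, 2 and 3). FNcKO replicate 1 was the highest library, and the lowest FNcKO value lay above the highest WT value. The means of 1.94 ± 0.189 and 3.43 ± 0.690 FPKM (SD, n = 3 each) differ 1.77-fold, or by 0.58 (SE 0.125) in log2(FPKM + 1). Fmod, fibromodulin, a keratan sulfate proteoglycan that binds type I collagen, stood at 4.64, 3.99 and 5.41 FPKM in WT and at 7.98, 5.78 and 6.86 FPKM in FNcKO. As for Optc, replicate 2 was the lowest in each genotype, and the groups were separated by a small gap between WT replicate 3 and FNcKO replicate 2. The means were 4.68 ± 0.710 and 6.87 ± 1.10 FPKM (SD, n = 3 each), 1.47-fold higher in FNcKO, with a log2(FPKM + 1) difference of 0.47 (SE 0.138).

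Ogn, osteoglycin or mimecan, the most abundant member in WT lenses, stood at 36.8, 39.3 and 36.4 FPKM in WT and at 39.3, 38.9 and 41.0 FPKM in FNcKO (replicates 1, 2 and 3). WT replicate 2 lay above FNcKO replicates 1 and 2, so the groups overlapped. The means were 37.5 ± 1.60 and 39.7 ± 1.10 FPKM (SD, n = 3 each), a ratio of 1.06 and a log2(FPKM + 1) difference of 0.08 (SE 0.0613). Bgn, biglycan, a chondroitin or dermatan sulfate proteoglycan of many connective tissues, stood at 2.11 and 3.37 FPKM in WT replicates 1 and 3 and at 2.35, 2.46 and 3.90 FPKM in the FNcKO libraries. Replicate 3 was the highest library of each genotype, and the groups overlapped. Its log2(FPKM + 1) difference was 0.06 (SE 0.237), and leaving out one library moved it between -0.18 and 0.31.

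Omd, osteomodulin, known from bone, stood at 0.715, 0.530 and 0.437 FPKM in WT and at 0.488, 0.544 and 0.523 FPKM in FNcKO (replicates 1, 2 and 3). The FNcKO libraries lay inside the WT range, and the mean of 0.540 FPKM over all libraries is below the minimum of 1 FPKM used for testing. Dcn, decorin, was listed above 0 in 4 of 6 libraries, at most at 0.183 FPKM, and Lum, lumican, in 2 of 6, at most at 0.0734 FPKM. With the estimated depths no library held more than about 7.22 fragments of Dcn or 4.69 of Lum, too few to compare the genotypes. Kera, keratocan, and Epyc, epiphycan, were listed at 0 in all 6 libraries. Dcn, Lum and Kera, proteoglycans typical of the corneal stroma and other fibroblast-rich tissue, were thus at or near 0 in every library.

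Of the 10 members, 5 passed the minimum of 1 FPKM: Optc, Prelp, Fmod, Ogn and Bgn. By limma 0 of these 5 were called at adjusted p 0.05, where 1.89% of all 10149 genes tested were called. At an unadjusted p under 0.05 there were 3 of 5 against 18.1% of all genes. Groups that did not overlap were found for 3 of 5 against 25.6% of all genes. With FNcKO higher these were 3 of 5 against 9.31%, and with FNcKO lower 0 of 5 against 16.3%. The median log2 difference of the 5 was 0.47, and all 5 lay above 0, beside a median of -0.04 and 39.7% above 0 for all genes tested. Nothing is read from these counts, because the members were chosen with this contrast known. In bulk lens RNA, fewer or more cells of a type and less or more RNA per cell cannot be told apart.

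**Figure D2:**
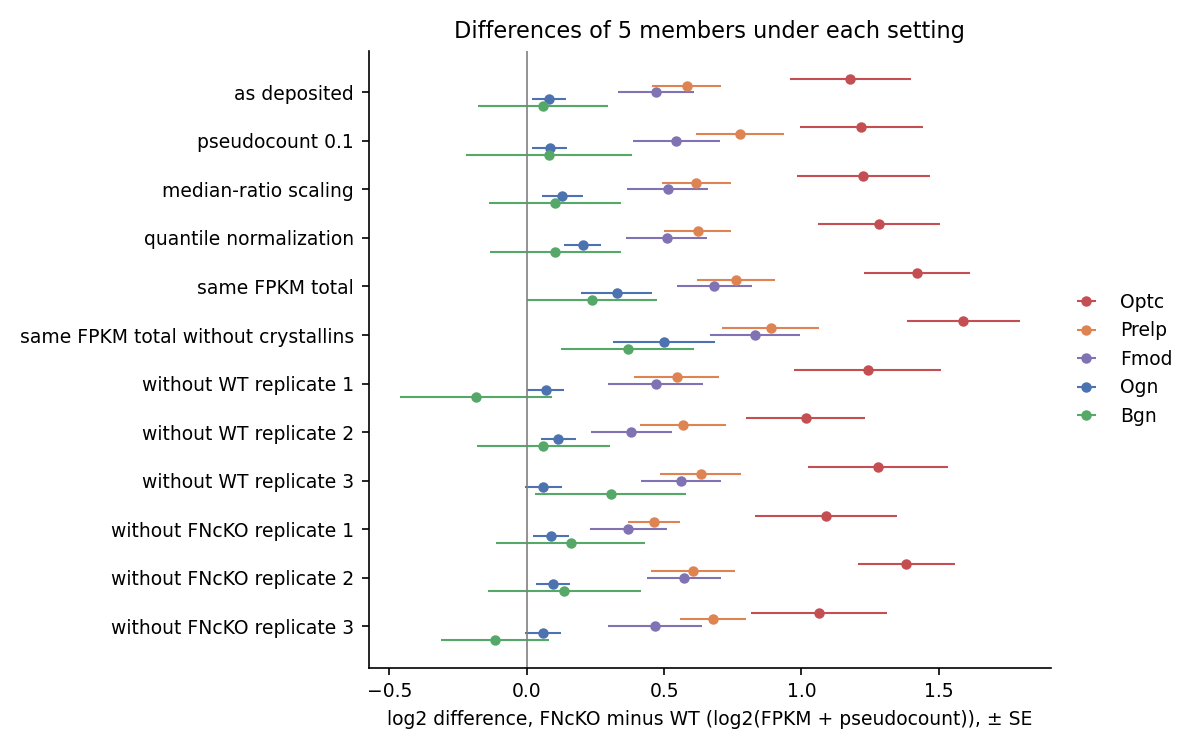
Difference of the 5 members past the minimum level, FNcKO minus WT in log2(FPKM + pseudocount), with SE, for the deposited values, a lower pseudocount, 4 other scalings between libraries and each library left out. Optc has the highest point in every row, the points of Prelp, Fmod and Ogn lie above 0 throughout, and Bgn lies on both sides of 0.

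The order of levels, which FPKM allows because it is per length, differed between the genotypes at its top. In WT it ran Ogn, Optc, Fmod, Bgn, Prelp, Omd, Dcn, Lum, and only the ranges of Bgn and Prelp and of Dcn and Lum overlapped among neighbours in that order. In FNcKO Optc had the highest mean, followed by Ogn, Fmod, Prelp, Bgn, Omd, Dcn and Lum, with overlapping ranges for Optc and Ogn, Prelp and Bgn, and Dcn and Lum. Among the 10149 tested genes, 90.7% had a lower WT mean than Ogn, 84.2% a lower one than Optc, 56.2% than Fmod, 37.9% than Bgn and 24.8% than Prelp.

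The make-up of the family's RNA differed accordingly. Without Bgn, which lacks a value, the members summed to 63.8, 60.1 and 65.2 FPKM in WT and to 99.7, 79.9 and 100.9 FPKM in FNcKO (replicates 1, 2 and 3). Optc took 28.8% ± 4.60 of this sum in WT and 45.4% ± 5.28 in FNcKO, and Ogn took 59.6% ± 5.09 and 42.9% ± 5.03 (SD, n = 3 each). The share of Fmod was 7.40% ± 0.838 in WT and 7.35% ± 0.613 in FNcKO. Within a library, where scaling between libraries cancels, the ratio of Optc to Ogn was 0.536, 0.360 and 0.573 in WT and 1.21, 0.809 and 1.21 in FNcKO. Those ranges did not overlap, nor did those of Prelp to Ogn (0.0478 to 0.0593 in WT, 0.0695 to 0.107 in FNcKO), while those of Fmod to Ogn did (0.101 to 0.149 and 0.149 to 0.203).

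Annotated genes overlap several members, and whether counting used strand is not given in the sources used here. Cenpp, a centromere protein gene on the opposite strand, spans Omd and Ogn and stood at 1.96 FPKM in WT and 1.39 FPKM in FNcKO, above Omd and far below Ogn. Gm15851, an antisense gene of the GENCODE models, overlaps Optc and Prelp and has no value here. How reads of these pairs were divided was not tested.

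Genes around the chromosome 1 cluster were compared, since this was not part of how the members were chosen. Within 500 kb of Optc, 8 genes other than Prelp and Fmod were tested and 0 were called by limma, with 1 at an unadjusted p under 0.05 (Gm8618, log2 change -0.32, SE 0.121, adjusted p = 0.251). Their median log2 change was -0.04, and 3 of 8 lay above 0. Other genes there lay below the minimum level and were not tested. Of these, Atp2b4 (mean 0.286 and 0.507 FPKM in WT and FNcKO) and Adora1 (0.421 and 0.722) were higher in every FNcKO library. Gm31629 (0.159 and 0 FPKM) was lower in every FNcKO library. These were named after their values were seen. Btg2, the tested gene nearest to Fmod, which encodes an antiproliferative protein, had a log2 change of 0.13 (SE 0.154, adjusted p = 0.714). Around Ogn 0 of 9 tested genes were called (2 unadjusted), around Bgn 0 of 9 (2 unadjusted), and around Dcn none of 9 other rows reached the minimum level. Fn1 lies on chromosome 1 as well, at 71585473 to 71653234.

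**Figure D3:**
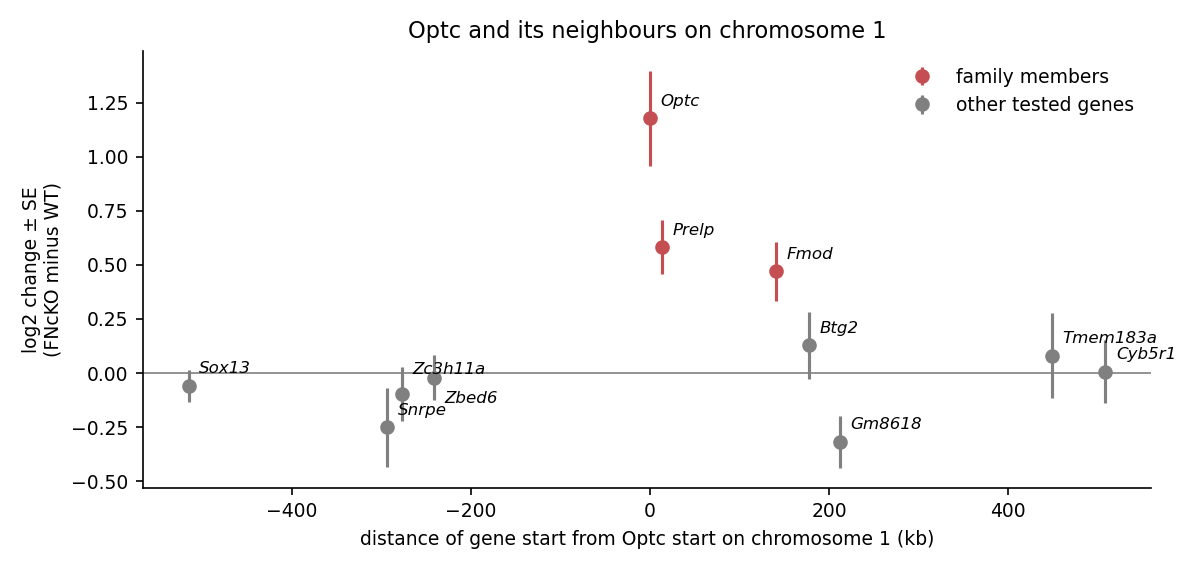
Log2 change with SE, FNcKO minus WT on the log2(FPKM + 1) scale, against the distance of each tested gene's start from that of Optc, in kb. The 3 family members stand between 0.47 and 1.18, and the 8 other genes stand between -0.32 and 0.13.

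Further genes of the family gave 2 of 8 above the minimum level. Podn, podocan, a class V member, stood at 17.2, 16.2 and 19.2 FPKM in WT and at 17.6, 29.9 and 22.6 FPKM in FNcKO (replicates 1, 2 and 3). FNcKO replicate 2 was the highest and the groups overlapped (log2 change 0.37, SE 0.188, adjusted p = 0.376 by limma). Nyx, nyctalopin, a retinal protein that is mutated in a form of night blindness, stood at 0.863 and 0.996 FPKM in WT replicates 1 and 3 and at 1.18, 1.05 and 1.21 FPKM in FNcKO, with no overlap (log2 change 0.15, SE 0.104, adjusted p = 0.511). Chad, Aspn, Ecm2, Chadl, Podnl1 and Tsku had means below 1 FPKM. Aspn and Ecm2, which adjoin Omd on chromosome 13, had WT means of 0.0347 and 0.0280 FPKM. For all genes tested the calls were 0.857% higher and 1.03% lower, and 0 of 2 were called here, both unadjusted and adjusted.

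Enzymes that build the sugar chains showed 0 calls. Of 23 enzymes of the linker and of chondroitin or dermatan sulfate, 8 were tested, 0 called and 0 at an unadjusted p under 0.05 (median log2 change 0.01). The smallest p belonged to Xylt1, which starts the linker (1.94 ± 0.110 and 1.65 ± 0.121 FPKM, adjusted p = 0.359), and B3gat3, which completes it (5.06 ± 0.424 and 5.79 ± 0.462 FPKM, adjusted p = 0.372; SD, n = 3 each). Of 12 keratan sulfate enzymes, 4 were tested, 0 called and 1 unadjusted (median -0.11). Fut8, a fucosyltransferase of the N-glycan core, stood at 12.1 ± 0.424 FPKM in WT against 9.94 ± 0.675 FPKM in FNcKO (n = 3 each, ± SD; limma adjusted p = 0.144). Chst2, a sulfotransferase, stood at 5.12 ± 0.176 (n = 2) and 4.34 ± 0.607 FPKM (n = 3, adjusted p = 0.447). Of 8 genes for tyrosine sulfation and the sulfate donor, 4 were tested, 0 called and 0 unadjusted (median -0.02), with Impad1, which clears a by-product of sulfation, at adjusted p = 0.415 and Tpst2, a tyrosylprotein sulfotransferase, at 0.770.

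Among collagens, the partners of these proteins, 8 of 18 were tested and 1 was called by limma. Col6a3, a chain of the beaded filament collagen VI to which several of these proteins bind, fell from 11.6 ± 1.02 to 1.34 ± 0.274 FPKM (n = 3 each, ± SD; limma adjusted p = 0.00129), and it kept that call without any one library. A further 6 collagens had an unadjusted p under 0.05, and 6 of the 8 lay above 0 with a median log2 change of 0.47, against -0.04 for all genes. Among the 8, Col2a1 and Col9a2 passed the minimum level only through FNcKO (WT means 0.887 and 0.707 FPKM). Col6a2 passed it only through WT (FNcKO mean 0.644 FPKM). Col18a1, whose end fragment is endostatin, Col9a1 and Col2a1, chains of vitreous fibrils, and Col1a2 of collagen I were named after their values were seen. Col18a1 stood at 6.19, 4.98 and 7.59 FPKM in WT and at 16.8, 10.3 and 13.5 FPKM in FNcKO (replicates 1, 2 and 3), with no overlap. Its adjusted p was 0.0805, that of Col9a1 0.102 (2.38 ± 0.586 and 5.17 ± 1.40 FPKM), that of Col2a1 0.210 and that of Col1a2 0.0636. Col6a2, another chain of collagen VI named in the same way, was lower in every FNcKO library. It stood at 1.42 ± 0.236 and 0.644 ± 0.139 FPKM (n = 3 each, ± SD, limma adjusted p = 0.0852). Col11a1 (mean 0.288 and 1.01 FPKM in WT and FNcKO) and Col5a1 (0.621 and 0.966) lay below the minimum level and were not tested. Both were higher in every FNcKO library and were named after their values were seen. No untested collagen was lower in every FNcKO library. With every library set to the same FPKM total Col18a1 and Col1a2 were called (adjusted p = 0.0425 and 0.0443), a scaling that moved the median of all genes from -0.04 to 0.15.

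**Figure D4:**
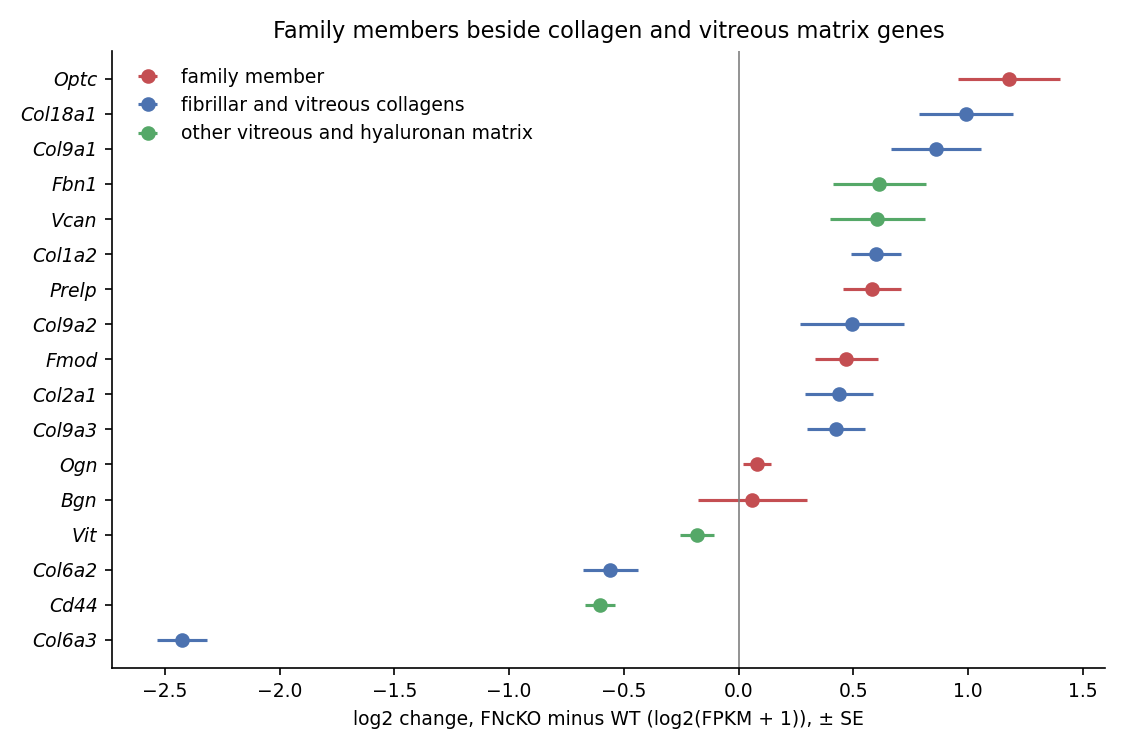
Log2 change with SE, FNcKO minus WT on the log2(FPKM + 1) scale, of the 5 members past the minimum level beside the tested collagens and other vitreous and hyaluronan matrix genes. Optc, Col18a1 and Col9a1 stand at the top, from 1.18 to 0.86, and Col6a3 at the bottom at -2.43.

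In the other vitreous and hyaluronan matrix 4 of 13 genes were tested, with 0 higher and 1 lower, and all 4 had an unadjusted p under 0.05 (median log2 change 0.21). Cd44, a hyaluronan receptor, fell from 45.9 ± 0.659 to 29.9 ± 1.70 FPKM (n = 3 each, ± SD; limma adjusted p = 0.0180), and missed the threshold without WT replicate 1, 2 or 3 (0.0813, 0.0733 and 0.0819) and with both same-total scalings (0.308 and 0.500). Vcan, versican, and Fbn1, fibrillin of the lens zonule, had log2 changes of 0.61 each (adjusted p = 0.215 and 0.204), and Vit, vitrin, of -0.18 (adjusted p = 0.275). These last 3 were named after their values were seen. A list of 13 genes held proteases known to cut these proteins or their precursors, together with enhancers of procollagen cleavage. Of the 13, 4 were tested, 0 called and 1 unadjusted (median -0.03). Adamts4, an aggrecanase, stood at 2.70 ± 0.115 and 1.87 ± 0.271 FPKM (n = 3 each, ± SD; limma adjusted p = 0.112), and Pcolce, an enhancer of procollagen cleavage, at adjusted p = 0.823.

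Of 18 growth factors and receptors bound by members of the family, 9 were tested, 1 was called and 3 were unadjusted (median log2 change 0.05). Erbb4, a receptor tyrosine kinase of the family to which decorin binds, rose from 0.855 ± 0.142 to 2.35 ± 0.382 FPKM (n = 3 each, ± SD; log2 change 0.85, limma adjusted p = 0.0331). With a WT mean below 1 FPKM, it passed the minimum level only through its FNcKO values. It stayed past the threshold only without FNcKO replicate 1 (0.0416) and missed it without any other library (0.0698 to 0.126) and with both same-total scalings (0.0548 and 0.0563). Egfr, a receptor of that family known to bind decorin and named here after its values were seen, lay below the minimum level and was not tested (0.921 ± 0.119 FPKM in WT and 0.338 ± 0.0613 FPKM in FNcKO), with every FNcKO library below the lowest WT library.

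The genes whose profile over the 6 libraries was nearest to that of Optc were ranked by the root mean square difference of log2(FPKM + 1), centred on each gene's mean, among 9403 genes with a value in every library. Col18a1 was nearest (0.153), followed by Ism2, an isthmin gene (0.176), and 1700003F12Rik (0.183). Ism2 stood at 0.453, 0.429 and 0.954 FPKM in WT and at 2.72, 1.47 and 2.39 FPKM in FNcKO, and 1700003F12Rik at 0.925, 0.516 and 0.556 and at 2.57, 1.91 and 3.70 FPKM (replicates 1 to 3). All 3 were higher in every FNcKO library than in any WT library, and FNcKO replicate 2 was the lowest of its group in each, as it was for Optc. Such likeness is what the ranking selects.

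**Figure D5:**
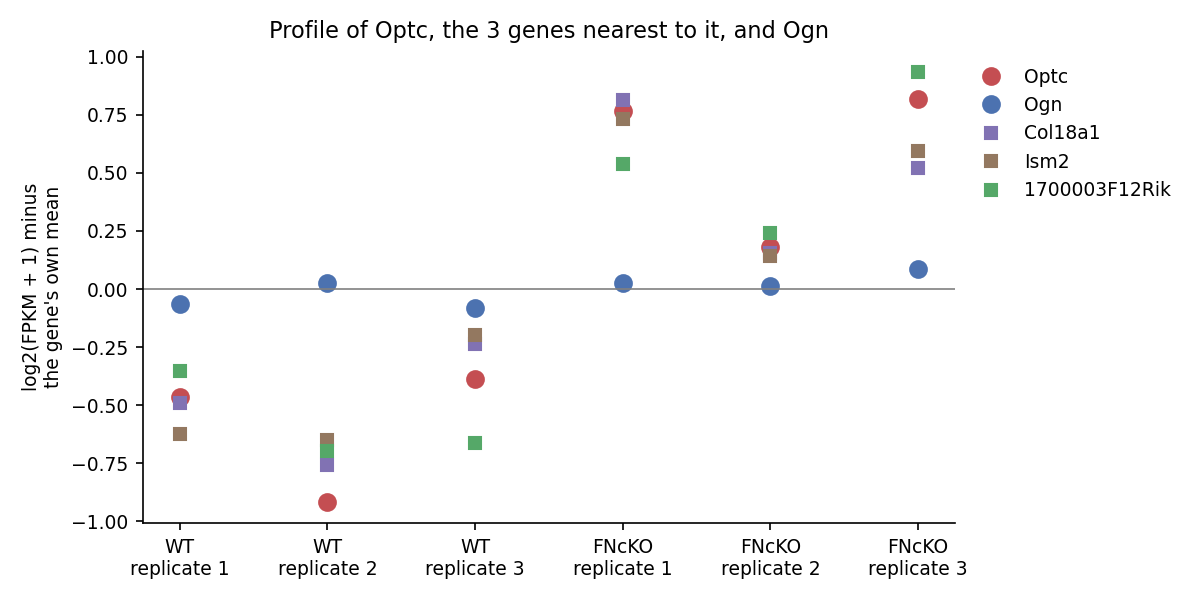
Log2(FPKM + 1) minus the gene's own mean over the 6 libraries, for Optc, Ogn and the 3 genes nearest to Optc. Optc and those 3 genes lie below 0 in the WT libraries and above 0 in the FNcKO libraries, with FNcKO replicate 2 closest to 0, while Ogn stays near 0 throughout.

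Ratios within a library were chosen after the values were seen and are a description. Col18a1 was picked for its likeness to Optc, so nothing is read from the overlap of their ratio. Optc to Col18a1 was 3.19, 2.85 and 2.75 in WT and 2.84, 3.07 and 3.66 in FNcKO (replicates 1 to 3), and Optc to Col9a1 was 6.59, 7.72 and 9.06 and 7.05, 7.63 and 10.7. Both ranges overlapped between the genotypes, as did those of Prelp to Col18a1 (0.284 to 0.378 in WT, 0.211 to 0.318 in FNcKO). Fmod to Col18a1 did not overlap and was lower in FNcKO (0.712 to 0.801 in WT, 0.476 to 0.563 in FNcKO). Fmod to Col9a1 was also lower without overlap (1.55 to 2.35 and 1.18 to 1.48). Optc to Col9a3, another chain of collagen IX, did not overlap and was higher in FNcKO (14.5 to 15.5 in WT, 15.9 to 30.2 in FNcKO), as were Optc to Vcan and Optc to Fbn1. Optc to Col9a2 overlapped (19.9 to 31.1 in WT, 21.4 to 41.2 in FNcKO), as did Optc to Col2a1 and Optc to Podn.

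Genes listed as markers of tissues beside the lens moved in several directions. Whether lens cells also make these RNAs, that of Aqp1 among them, was not tested. Of 12 markers of the ciliary body's non-pigmented epithelium and iris, 8 were tested and 1 was called by limma, 3 were unadjusted, and 6 lay above 0 (median log2 change 0.34). None was listed at 0 in every library, and 10 of them with a value in every library summed to 15.9 to 19.5 FPKM in WT and 30.8 to 31.8 FPKM in FNcKO. This list shares Col9a1 and Col9a2 with the collagens. Without these and Aqp1, a choice made after the values were seen, the other 7 summed to 8.13 to 10.4 FPKM in WT and 7.34 to 11.0 FPKM in FNcKO, with overlap. The genes set aside had the highest folds of the list (Aqp1 2.96, Col9a1 2.17 and Col9a2 2.04), so nothing is read from that overlap. Msx1, a homeobox gene also named after its values were seen, was lower in every FNcKO library (1.43 ± 0.0799 and 0.601 ± 0.131 FPKM, n = 3 each, ± SD; limma adjusted p = 0.0501). Zic2, named in the same way, was higher in every FNcKO library (0.624 ± 0.0597 and 1.07 ± 0.391 FPKM, n = 3 each, ± SD). It lay below the minimum level and was not tested. Aqp1, a water channel, was the most abundant in WT and rose from 5.27 ± 0.991 to 15.6 ± 3.96 FPKM (n = 3 each, ± SD; limma adjusted p = 0.0432), a call that was kept only without FNcKO replicate 1 and lost without any other library (0.116 to 0.155). Aqp4, the next most abundant in WT, stood at 3.95 ± 0.440 and 3.31 ± 0.160 FPKM (adjusted p = 0.285). The part of this tissue in the Optc, Prelp and Fmod values was not tested.

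Other marker lists did not share one direction. Photoreceptor markers summed to 23.4 to 65.6 FPKM in WT and 34.3 to 35.7 in FNcKO, with 1 of 9 tested called: Gnat1 fell from 20.6 ± 2.34 (n = 2) to 9.42 ± 0.503 FPKM (n = 3, adjusted p = 0.0215), a call lost without any library in which it has a value (0.0662 to 0.105). Pigment cell markers summed to 11.6 to 19.0 FPKM in WT and 6.74 to 8.49 FPKM in FNcKO, with 0 of 2 called, Ttr at adjusted p = 0.0887 and Oca2 at 0.0798. Corneal stroma markers summed to 117.2 to 131.7 and 143.4 to 182.3 FPKM, with 0 of 2 called, Ptgds at adjusted p = 0.233 and Aldh3a1 at 0.967, and 2 of 9 listed at 0 in every library. Most of those sums was Ptgds (mean 94.1 and 127.2 FPKM in WT and FNcKO) and Aldh3a1 (28.2 and 32.7). Each of them overlapped between the genotypes. That list holds Dcn, Lum and Kera. Fibroblast markers summed to 9.10 to 9.50 and 9.29 to 10.4 FPKM, with 0 of 2 called and Pdgfra at adjusted p = 0.644. Pdgfra made up most of those sums (mean 7.79 and 7.32 FPKM in WT and FNcKO). The other tested gene, Col1a2, was higher in every FNcKO library (1.07 and 2.13 FPKM). For endothelium and pericytes 1 of 7 was tested and called: Pdgfrb fell from 5.01 ± 0.296 to 2.26 ± 0.141 FPKM (n = 3 each, ± SD; limma adjusted p = 0.00572), with Kdr at 0.122 and 0.130 FPKM and 2 of 7 listed at 0. With the same-total scalings Gnat1 (0.129 and 0.206) and Pdgfrb (0.0689 and 0.179) missed the threshold. Of the smooth muscle markers, Acta2 alone was tested (99.3 ± 6.06 and 70.8 ± 6.54 FPKM, adjusted p = 0.0702), and Tagln stood at 0.166 and 0.114 FPKM. Glial markers gave 0 of 4, Vim at adjusted p = 0.879 and Apoe at 0.279. They summed to 888 to 958 FPKM in WT and 972 to 1058 FPKM in FNcKO, most of it Vim (mean 763 and 789 FPKM). Of 8 leukocyte markers 0 reached the minimum, with Lyz2 at 1.33 and 0.525 FPKM and C1qb at 0.383 and 0.365 FPKM in WT and FNcKO. Whether lens cells also make these marker RNAs was not tested, and neither was the part of these tissues in the members' values.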

How the data were processed

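Total RNA of 6 lens libraries was sequenced by the authors after preparation with a stranded kit for very small inputs, per the labels' protocols. The deposited values are FPKM. FastQC, cutadapt 1.12, TopHat2 2.1.0 and Cuffdiff 2.2.1 appear in the submitters' processing notes, with mm10 and GRCm38.p5 as builds. Annotation, scaling and use of strand: not given in the sources used here.

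The 10 members and every gene list were chosen with earlier results of these data known. Groups come from the labels. Genes whose mean reached 1 FPKM were fitted as log2(FPKM + 1), a scale that understates changes of low genes, with limma 3.58.1 in R 4.3.3 (trend, two-sided, Benjamini-Hochberg over 10149 genes, threshold 0.05). Folds are ratios of mean FPKM. The minimum of 1 FPKM applied to the mean over all libraries with a value, so a gene could pass it through 1 genotype alone. A gene without a value in WT replicate 2 was fitted on the other libraries, and 1 unreadable value was treated as missing. The labels say that replicates are biological but do not tie them to animals.

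Beside the members, the text names up to 4 genes of each list that passed the test, or else the 2 of smallest p, other family genes past the minimum, the 3 nearest profiles, the 2 markers of each list most abundant in WT and Fn1. 1 gene that this rule takes is not reported here. Other names were chosen after values were seen. Alternatives were the pseudocount, the minimum, 4 scalings, each library left out and a replicate block.

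Depth was estimated from low values of single-exon genes taken as multiples of 1 fragment. The settings of that search were adjusted after its results were seen, so depths are approximate. They enter no test. The fit was tested on simulated data. With each gene given the median spread of genes of like level it found nearly all changes. With the root mean square spread, tried first, it missed most changes of every size used. The outcome hung on the spread chosen, and changes were given only to the more abundant genes. How many calls were missed in the real data therefore cannot be read from it, and a gene that was not called may still differ. Protein sequences were not used here.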

Additional observations from a re-analysis of the deposited data

How the results depend on the processing

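No member was called by limma on the deposited values or under the other pseudocount, a minimum of 0.1 FPKM, no minimum, median-ratio scaling, quantile normalization, any library left out or the replicate block. With the same FPKM total, and with the same total without crystallins, the count was 1 (Optc) each time. These counts are a description, since the members were chosen on this contrast. Under these scalings the median over all genes went from -0.04 to 0.15 and 0.29 (log2), and raised the difference of Ogn from 0.08 to 0.33 and 0.50. Over all genes 192 were called, 101 without a minimum level, 89 and 86 with these same-total scalings, and 37 to 117 with one library left out. The share of calls that were higher was 45.3% as deposited, 57.3% with median-ratio scaling, 60.4% after quantile normalization, and 70.8% and 76.7% with the same-total scalings. Of the pathway lists 3 genes were called, and 1 to 3 with one library left out.

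Replicate numbers were shared by the genotypes, and over 9407 genes the deviations of same-numbered libraries correlated between -0.0545 and -0.0271. Single members differed in this. With the replicate block the SE of the log2 difference fell from 0.221 to 0.0728 for Optc and from 0.138 to 0.101 for Fmod. For Bgn it fell from 0.237 to 0.0982, while it rose from 0.125 to 0.143 for Prelp and from 0.0613 to 0.0776 for Ogn. Whether same-numbered libraries shared a batch was not tested. With the replicate block 14 genes were called, 1 of them in the pathway lists.

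Log2 changes that turned sign, all of genes not called, were with the same total and the same total without crystallins 0.014 and 0.13 for Xylt1, 0.00090 and 0.15 for Chst2, 0.020 and 0.16 for Impad1, 0.16 and 0.31 for Pcolce, 0.068 and 0.24 for Vit, 0.0011 and 0.14 for Aqp4, and 0.14 and 0.30 for Pdgfra. Fut8 turned to 0.14 with the second, and Cryab to -0.25 after quantile normalization. With one library left out the log2 changes ran from -0.15 to 0.038 for Pcolce, from -0.049 to 0.062 for Cryab, from -0.23 to 0.57 for Aldh3a1 and from -0.042 to 0.13 for Vim. The causes were not tested. Dcn and Lum rest on few fragments and Kera and Epyc are listed at 0, so no difference was detectable for them.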
